A study of Squalius alburnoides and Squalius pyrenaicus with 4 samples.

Results

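The triploid hybrid PAA of the *Squalius alburnoides* complex was compared with what its genome dose predicts from the non-hybrid forms. PAA carries 1 genome of *S. pyrenaicus*, P, and 2 of the other ancestor, A, so its expected signal for a microRNA (miRNA) was (PP + 2 AA)/3 on the linear scale. Of 218 zebrafish miRNAs on the chip, 124 were detected on the PAA, AA and PP arrays and entered the comparison, which used 3 of the 4 arrays of the series. The miRNAs were thus chosen by detection, but on the same 3 arrays that give the deviation. A miRNA without signal on PAA, or on a parental array, could not enter, so some large deviations are missing from the counts. Such miRNAs, miR-182 among them, are described apart. Detected means that at least 2 of the 4 spots of a probe were kept at the scan, lay above 0 and had a foreground of at least 2 times the local background.

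The samples were adult fish of 3 genomic compositions: PAA, the triploid hybrid, AA, the diploid non-hybrid form of *S. alburnoides*, and PP, the diploid parental species *S. pyrenaicus*. Each array held total RNA labelled with Cy3 from a pool of brain, muscle and liver taken from about 3 fish, and each composition had 1 array. No difference between compositions therefore had a replicate check, no test was run, and the errors given are standard errors (SE) from the repeat spots of each probe, in log2 units, so they cover the spread inside an array and not that between fish. PAA shared its slide with the diploid hybrid PA, while both non-hybrid forms lay on the second slide, and in the deviations below slide cannot be told apart from hybrid state. The arrays of PAA and AA lay in the same part of their slides and that of PP in the other part. Nearness of PAA to AA or PP therefore cannot be told apart from place on the slide. According to the methods *S. alburnoides* and *S. pyrenaicus* came from different rivers. The paper describes AA fish of the complex in general as always male and PAA as mostly female, but gives no sex for the fish used. River, and sex where it differed, cannot be told apart from genome dose either. In pooled tissue, fewer cells of a type and less RNA per cell cannot be told apart.

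miRNAs are short RNAs that guide a silencing complex to messenger RNAs with matching sites and lower their output. They act in families that share a seed, and many are transcribed together from a cluster. Some mark a tissue, as miR-122 does liver, miR-1 striated muscle and miR-9 the nervous system, so that a pool of liver, muscle and brain holds a mixture of such profiles. An allopolyploid has unequal doses of 2 parental genomes, and if each genome copy gave the same amount of a miRNA as it does in its own form, the triploid would lie at the weighted mean of both.

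The summed signal of the detected zebrafish miRNAs was 162967 on PAA, 152942 on AA and 147505 on PP, and each array was scaled to the total of PAA, so that all signals below are relative to the total of zebrafish miRNAs. The median spot SD on the log2 scale was 0.17 on PAA, 0.12 on AA and 0.34 on PP. BLANK spots, which carry no probe, gave a level to read dim signals against. The 95th percentile of their scaled signal was 103 on PAA, 216 on AA and 570 on PP. Of the 124 miRNAs, 124 lay above it on PAA, 55 on AA and 27 on PP, and 25 lay above it on all 3 arrays. The median spot area was under 2000 square microns for 25 of the 124 miRNAs on PAA, 53 on AA and 47 on PP.

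The labelled tissues were checked against their marker miRNAs. Liver markers were carried by miR-192, a liver and gut miRNA, at 27142 on PAA, 22725 on AA and 24145 on PP. Yet miR-122, the most abundant miRNA of vertebrate liver, had 259 on PAA and 241 on AA, and on PP it lay below the BLANK level. The summed signal of the 4 muscle markers detected on all 3 arrays was 1703 on PAA, 966 on AA and 846 on PP, against 926 expected for PAA, and miR-1 alone, at 1262 against 441 expected, made up the excess. That of 4 brain markers was 9648 on PAA, 6914 on AA and 6772 on PP, against 6867 expected. Of these miR-138, at 3569 on PAA against 1933 expected, miR-9 and miR-137 were above the expectation, and miR-219 was below, at 1691 against 1907. Of the brain markers outside this sum, miR-128 was detected on AA and PP, below their BLANK levels, but not on PAA. miR-124 was not detected on AA and had 190 on PAA and 307 on PP. The sum of 3 liver markers was 27529 on PAA, against 23614 expected. miR-192 carried this sum, at 27142 against 23198 expected, with spots that overlapped the expected range. miR-122 was above the expectation, at 259 against 221. miR-194b was below it, at 128 against 195, with both parental values below their BLANK levels. For red cells, miR-451 had 366 on PAA, 175 on AA and 130 on PP, and miR-144 was detected on none of these arrays. The gonad marker miR-202 had 315 on AA and 228 on PP, and on PAA a single passing spot at 492, too few to count as detected. What share of the deviations these markers have was not tested.

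Most miRNAs of PAA lay within 2-fold of the genome-dose expectation, but most also had a dim signal on at least 1 array. The deviation, log2 of PAA over the expectation, had a median of 0.19 over the 124 miRNAs, with quartiles of −0.28 and 0.44, and the median SE of a deviation was 0.15. The deviation was within 1 log2, that is 2-fold, for 111 miRNAs (89.5%). By mean signal over the 3 arrays this share was 97.6% in the lowest tertile and 81.0% in the brightest. It was 80% for the 25 miRNAs above the BLANK level on all 3 arrays. The other 99 were under that level on at least 1 array, and there closeness cannot be told apart from values at background. 7 miRNAs (5.65%) lay more than 1 log2 above the expectation and 6 (4.84%) more than 1 log2 below it. PAA was above the expectation for 72 miRNAs (58.1%) and below it for 52. All of these share the same arrays and scaling and are not independent, so no interval is given for this share. For 60 miRNAs the spots of PAA did not overlap the range expected from the spots of AA and PP, 48.4% of all that were measured, and 40 of these were above the expectation and 20 below. Among probes with names of invertebrate miRNAs only, this share was 52.1%, with 41 above and 9 below, and among those named for other vertebrates 47.6%, with 143 above and 34 below. The share of zebrafish miRNAs is thus near that of the other probes.

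The invertebrate probes gave nearly the same picture for larger deviations. Of 96 such probes detected on the 3 arrays, 6 (6.25%) lay over 1 log2 above the expectation and 5 (5.21%) below it, 64.6% were above the expectation, and the median deviation was 0.24. Some of these names belong to miRNAs that are conserved in fish, and the probe sequences were not at hand, so they are no pure measure of background. Over 372 probes named for other vertebrates 6.99% lay over 1 log2 above and 2.96% below, with a median of 0.25. The share of zebrafish miRNAs far above the expectation was thus no larger than in either of these sets, and the share far below it lay between those of both. Among 46 probes labelled by a number 2.17% lay over 1 log2 above and 6.52% below, and among 11 labelled ZF_miR 9.09% and 0%.

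The sign of the median deviation depended on how the arrays were scaled. When the median of the zebrafish miRNAs was set equal instead of their total, the median deviation was −0.064 and 40.3% of miRNAs lay above the expectation. With the control spots labelled Homo as the scale, the median deviation was −0.33, with 21.8% above, and with no scaling it was 0.30, with 66.9% above. The medians under these scalings lay further apart than the size of the median deviation itself, so a surplus of miRNAs above or below the expectation was not established. The 13 miRNAs over 1 log2 away kept their direction under every alternative in which they were measured. For the scalings this says little. The largest shift of the median among them was −0.52, with the Homo spots, which is less than the limit by which these miRNAs were chosen. Deviations below are given with scaling to total signal, and should be read against the median of 0.19.

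**Figure D1:**
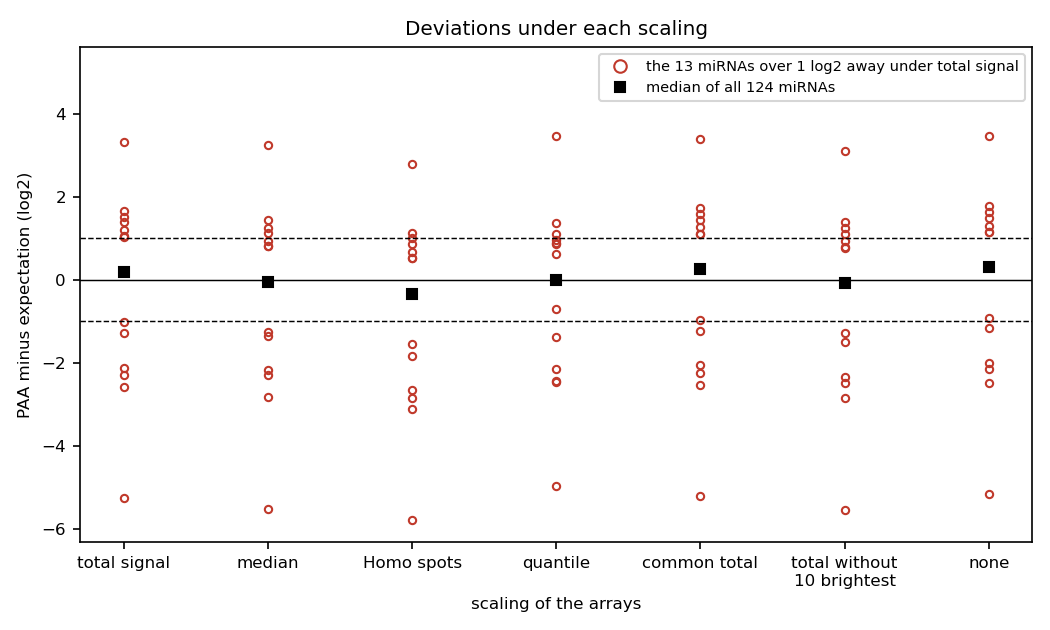
Deviation of PAA from the genome-dose expectation (y axis, log2) under 7 scalings of the arrays (x axis). Open circles are the 13 miRNAs over 1 log2 away when arrays were scaled to total signal, black squares are the median of all 124 miRNAs, and dashed lines mark 1 log2 either way. The median moves between −0.33 with Homo spots and 0.30 without scaling. No circle changes side, but these shifts of the median are smaller than the limit by which the circles were chosen.

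By mean signal over the 3 arrays, 1 of the 13 miRNAs over 1 log2 away was in the lowest tertile of 42 miRNAs, 4 were in the middle tertile and 8 in the brightest. This mean includes the signals that differ, and miR-736 and miR-738, described below, reached the brightest tertile through spots on PP, so signal and deviation are not independent. The median deviation was −0.033 in the lowest tertile, 0.24 in the middle and 0.28 in the brightest. Of the 25 miRNAs above the BLANK level on all 3 arrays 5 lay over 1 log2 below the expectation and none above. The level is lower on PAA than on AA and PP, so that a low signal on PAA could pass where low parental signals could not, and no direction is read from this.

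**Figure D2:**
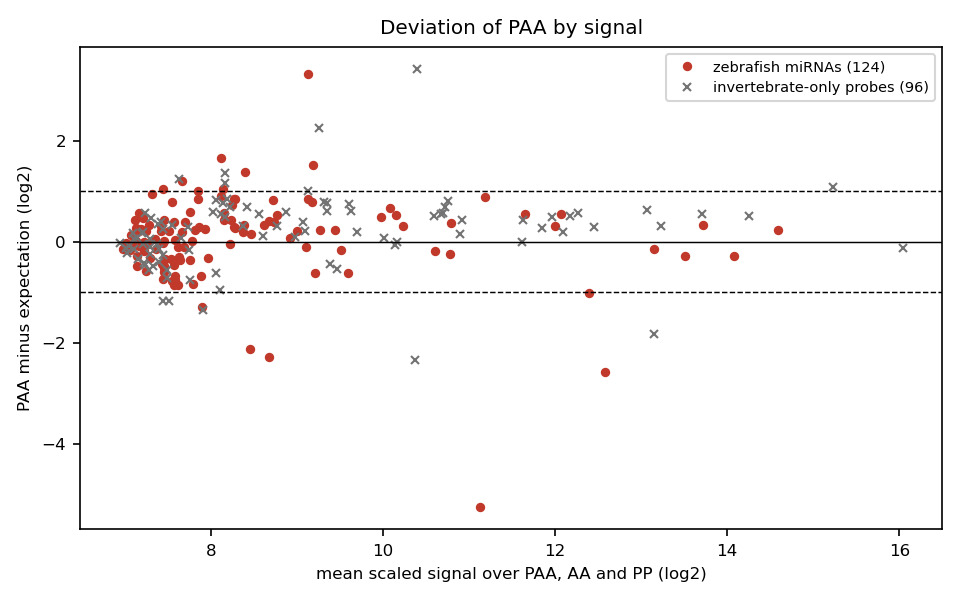
Deviation of PAA from the expectation (y axis, log2) against the mean scaled signal over PAA, AA and PP (x axis, log2). Red points are 124 zebrafish miRNAs, grey crosses 96 probes with invertebrate names only, and dashed lines mark 1 log2 either way. Most points of both kinds lie between the dashed lines, and let-7c lies lowest at −5.25.

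The miRNA farthest above the expectation was miR-731, which in teleosts lies in a cluster with miR-462. It had 2574 on PAA, 135 on AA and 501 on PP, where 257 was expected, a deviation of 3.32 ± 0.06. All 4 spots on PAA lay between 2448 and 2755, and the highest of the spots on AA and PP was at 568. Both parental values were below their BLANK levels, and against those levels PAA was at least 7.71-fold above the expectation. On PA, the other hybrid and on the same slide, miR-731 had 4457. Its cluster partner miR-462 had 165 on PAA, 108 on AA and 149 on PP, a deviation of 0.44 ± 0.40 with overlapping spots. Both parental values of miR-462 were also below their BLANK levels. Whether the members of this pair lay at the same distance from the expectation is therefore not established.

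Next came miR-101a, a miRNA that in mammals represses components of the Polycomb complex. Its signal was 583 on PAA, 170 on AA and 215 on PP, against 185 expected, a deviation of 1.66 ± 0.12. The spots of PAA, from 533 to 623, did not overlap those of the other arrays, of which the highest was 375 on PP. AA and PP were below the BLANK level, which left PAA at least 1.74-fold above. Members of the same list lay closer to their expectation, miR-29a at −0.03, miR-26a at 0.02 ± 0.61, miR-29b at 0.16 and miR-26b at 0.22.

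Of the muscle miRNAs, miR-1, which promotes differentiation of striated muscle, was at 1262 on PAA, 510 on AA and 305 on PP, against 441 expected. The deviation was 1.52 ± 0.08, and all 4 spots on PAA (1171 to 1370) lay above all spots on AA (464 to 575) and PP. PP was below its BLANK level, and the bound against that level was 2.38-fold. The other 4 measured muscle miRNAs did not share this: miR-133a was at 0.14, miR-133a* at 0.01, miR-133b at 0.00 and miR-206 at −0.46. In vertebrates miR-1 and miR-133a are made from shared transcripts. Signals of miR-133a were dim, 143 on PAA, 130 on AA and 131 on PP.

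miR-454b, of the seed family of miR-130, miR-301 and miR-454, had 657 on PAA, 270 on AA and 217 on PP, a deviation of 1.38 ± 0.14, and only 2 of its spots passed on PP, where it lay below the BLANK level (at least 1.78-fold above). Its remaining spots on PP, at 702 and 307, had been set aside or did not pass. miR-454a was at 0.33 and miR-130b at 0.41 ± 1.36 with overlapping spots. miR-451, an erythrocyte miRNA that is processed without Dicer, had a deviation of 1.19 ± 0.05 from the values given above, but both parental values were below their BLANK levels, against which PAA was at least 1.10-fold above. Of the same list, miR-126, an endothelial miRNA, was at 0.56 and miR-145, a smooth muscle miRNA, at 0.32. For miR-126 and miR-145 too, both parental values were below their BLANK levels. All 3 measured members of this list were above the expectation, as were 58.1% of all 124 miRNAs. The list median was 0.56, and 0.029 under the scaling that gave the lowest value.

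The last to pass the limit were miR-96 and miR-30c. miR-96, a member of the sensory miR-183, miR-96 and miR-182 cluster, had 278 on PAA, 129 on AA and 145 on PP, a deviation of 1.04 ± 0.11, but both parental values were so far below the BLANK levels that no bound above 1-fold remained. A second probe, named for human miR-96, had 1080 on PAA, 241 on AA and 593 on PP, each above its BLANK level. Its deviation was 1.59 ± 0.12. Whether both probes read the same miRNA was not tested. miR-183 was at 0.57 ± 0.43 with overlapping spots. miR-182 was detected on PAA at 1183 in all 4 spots, whereas 1 spot passed on AA and 0 on PP. Against the BLANK levels of those arrays PAA was at least 3.54-fold above the expectation. On PA it had 1156. miR-30c had 457 on PAA, 222 on AA and 224 on PP, a deviation of 1.04 ± 0.07 and at least 1.35-fold with PP at its BLANK level, next to miR-30e at 0.53 and miR-30a at −0.046. The values just under the limit were those of miR-740 (0.996 ± 0.28), miR-153a (0.95 ± 0.56) and miR-430b (0.90 ± 0.12), so no gap separated the 7 miRNAs from the rest.

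**Figure D3:**
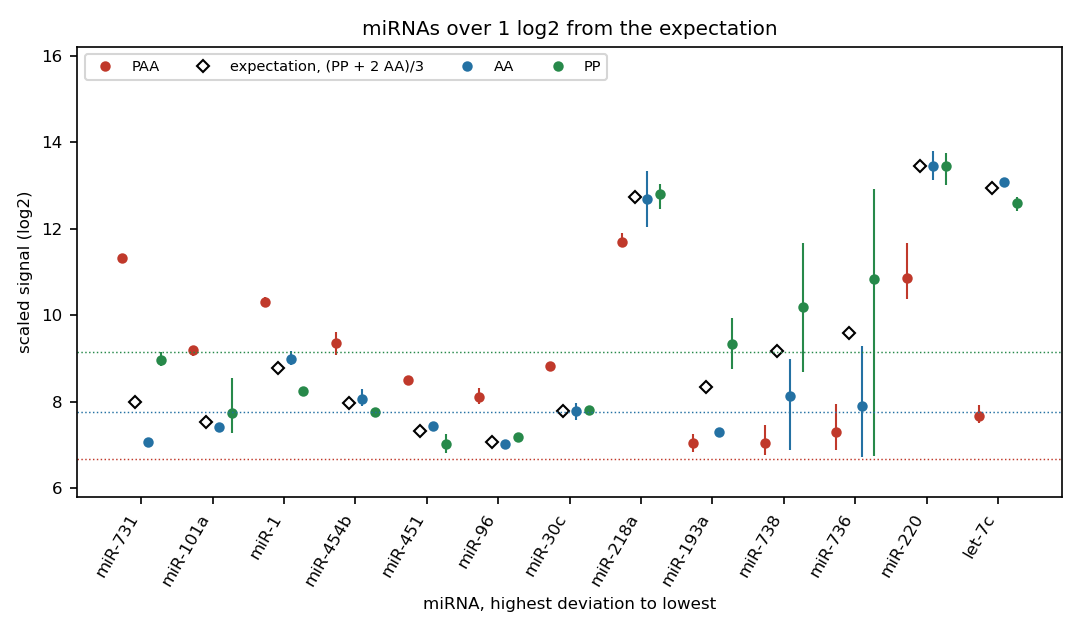
Scaled signal (y axis, log2) of the 13 miRNAs over 1 log2 from the expectation, in order of deviation. Red, blue and green points are the array values of PAA, AA and PP with the range of their spots as bars, open diamonds the expectation, and dotted lines the 95th percentile of BLANK spots on the array of the same colour. The 7 miRNAs on the left have at least 1 parental value under its BLANK level, and let-7c, at the right, is at 206 on PAA.

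Among the miRNAs below the expectation let-7c stood far from all others. let-7 miRNAs accumulate as tissues differentiate and repress growth genes. let-7c had 206 on PAA, 8677 on AA and 6216 on PP, where 7857 was expected, a deviation of −5.25 ± 0.10. The spots ran between 183 and 243 on PAA, 8159 and 9232 on AA and 5420 and 6765 on PP. Not only the signal but also the spot area differed, with a median of 300 square microns on PAA against 7050 on AA and 6850 on PP. On PA let-7c had 258, a deviation of −4.85 from the mean of AA and PP. The other 4 let-7 miRNAs measured lay within 1 log2 of the expectation, let-7b at 0.83 ± 0.18 with its spots apart, let-7a at 0.39, let-7f at 0.39 and let-7g at −0.33. Members of this family differ by few bases and whether their probes share signal was not tested.

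miR-220 was the second bright miRNA below the expectation, at 1860 on PAA, 11159 on AA and 11137 on PP, a deviation of −2.58 ± 0.43. Its passing spots ran up to 3241 on PAA and down to 8196 on PP. On each of these arrays the fourth spot had been set aside or did not pass, at 699 on PAA, 702 on AA and 833 on PP. On PA it was at 3296. Together let-7c and miR-220 took 1.27% of the total zebrafish signal on PAA, 12.2% on AA and 10.6% on PP, so that all other miRNAs had more of the total left to them on PAA. miR-218a, a motor neuron miRNA in vertebrates, had 3337 on PAA, 6592 on AA and 7170 on PP, a deviation of −1.02 ± 0.24 with no overlap of spots. Its first 2 spots on AA were at 9512 and 10256 and its last 2 at 4183 and 4626. With the last 2 spots of each probe alone miR-218a was at −0.90. Of the same list of neuronal miRNAs, miR-138, which is enriched in brain, was at 0.88 ± 0.09, with 3569 on PAA, 2036 on AA and 1728 on PP.

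The other 3 miRNAs below the limit rested on few spots of PP. miR-736 had 158 on PAA, 238 on AA and 1839 on PP (−2.29 ± 1.67), and its spots on PP were at 7548, 7686 and 107, overlapping those of PAA. miR-738 had 133 on PAA, 282 on AA and 1162 on PP (−2.12 ± 1.05), from 2 passing spots on PP at 413 and 3267. Spots of miR-738 at 3251 on PAA, 9929 on AA and 928 and 178 on PP had been set aside or did not pass. miR-193a had 132 on PAA, 159 on AA and 651 on PP (−1.29 ± 0.45), from 2 passing spots on each array, with a median spot area of 100 square microns on PAA and PP. With the last 2 spots of each probe alone miR-736 was at −0.018. The nearest miRNAs within the limit were miR-10b at −0.86, miR-10c at −0.85 and miR-135c at −0.84.

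Some probes changed together on both arrays of a slide. A difference of more than 2 log2 between both arrays of the hybrids and both arrays of AA and PP was found for 3 of 197 zebrafish miRNAs with kept spots on all 4 arrays (1.52%), with probes that were not detected set to the lowest signal detected on that array or, where higher, to their own spots. These were let-7c, miR-731 and miR-182. Of 863 other probes 5 (0.58%) differed in this way, among them probes named for human or rat miRNAs. Whether slide, hybrid state or position of a probe has a part in these differences cannot be told apart.

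The 5 miRNAs with the highest mean over the 3 arrays lay within 0.5 log2 of the expectation. These were miR-192, miR-27c, miR-23a, miR-181a and miR-461, which together made up 47.7% of the signal on PAA, 47.5% on AA and 45.9% on PP. miR-23a and miR-27c, which come from related clusters, had deviations of 0.34 ± 0.24 and −0.28 ± 0.12. miR-192 was at 0.23 ± 0.22, miR-181a, a regulator of lymphocyte development in mammals, at −0.27 ± 0.35, and miR-461, known from fish, at −0.14 ± 0.04. In none of the 5 were the spots of PAA outside the expected range. miR-220, which lay far below the expectation, was brighter on PP than miR-23a and miR-461 but not on PAA. Among the bright miRNAs with spots apart, miR-146b, of a family induced in inflammation, had 5580 on PAA, 3890 on AA and 3626 on PP (0.55 ± 0.03), and miR-9 had 4010 on PAA, 2226 on AA and 3729 on PP (0.56 ± 0.13). miR-196b, which lies in a Hox cluster, had 1486 on PAA, 936 on AA and 924 on PP (0.67 ± 0.04).

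Grouped by family or tissue, few lists kept the sign of their median under every scaling. The miRNAs were sorted into 28 lists, of which 26 had at least 2 measured members. The list median was above 0 under every scaling for 6 lists, below 0 under every scaling for 3, and changed sign with the scaling for 17. The scalings shifted the median over all miRNAs by −0.52 to 0.11 from that with total scaling. Whether a list kept its sign thus mostly followed from the size of its median, and no direction is read from it. The 6 lists above 0 were those of miR-462 with miR-731 and of miR-183 with its cluster, germline and embryo miRNAs, connective tissue miRNAs, red cell and vessel miRNAs and the miR-30 family. They had 2 or 3 measured members each. For the miR-30 family the lowest median over the scalings was 0.0011 and for red cell and vessel miRNAs 0.029, so both barely kept their sign. In the others it was between 0.27 and 1.35. Among the germline and embryo miRNAs, miR-430b had 413 on PAA, 207 on AA and 248 on PP (0.90 ± 0.12) and miR-430j 877 on PAA, 552 on AA and 363 on PP (0.84 ± 0.05). The miR-430 family clears maternal messenger RNAs in the early fish embryo. miR-430a was at −0.16 ± 1.56. Of the connective tissue miRNAs miR-199* was at 0.80 ± 0.05, miR-140*, from a cartilage miRNA gene, at 0.79 ± 0.45 and miR-214 at −0.57 ± 0.12.

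The 3 lists with a median below 0 under every scaling were the miRNAs known mainly from teleosts, the miR-103 and miR-107 family and a list of miRNAs with no larger family. Over the scalings the highest median of the teleost list was −0.036, and that of each of the others −0.19. In the teleost list 4 of 11 measured miRNAs were above the expectation and 7 below, with miR-740 at the upper and miR-736 at the lower end. Of the neural list 3 of 8 were above and 5 below, with a median of −0.064 that turned positive without scaling. All 4 measured members of the family of miR-17, miR-18, miR-20 and miR-93, which promotes proliferation, were above the expectation with total scaling, at 0.59 for miR-17a*, 0.23 for miR-93, 0.19 for miR-17a and 0.03 for miR-18a, but the list median of 0.21 became −0.31 with the Homo spots. The let-7 list had a median of 0.39, despite let-7c, and −0.14 with the Homo spots.

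**Figure D4:**
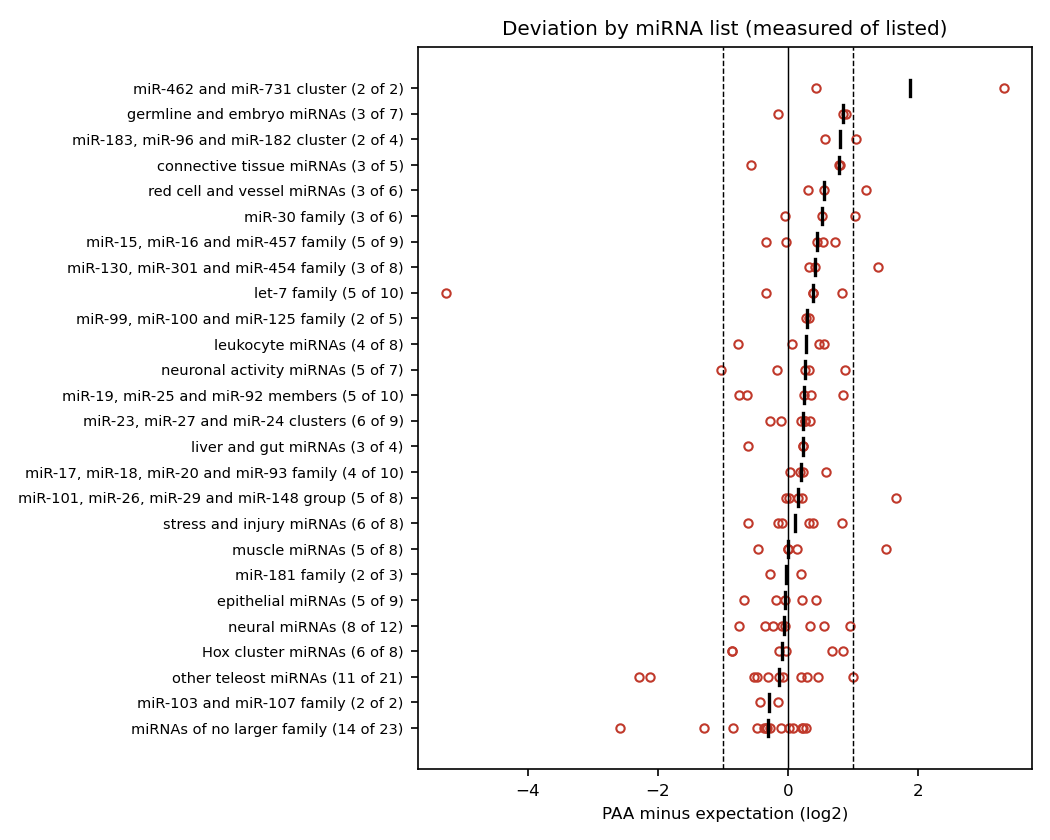
Deviation of PAA from the expectation (x axis, log2) for the measured members (open circles) of the 26 lists with at least 2 of them, with the list median as a black bar. Each list name is followed by the number measured of the number on the chip, and dashed lines mark 1 log2 either way. The miR-462 and miR-731 cluster has the highest median, 1.88, from 2 members, and the miRNAs of no larger family, near the bottom, have a median of −0.30.

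PAA lay nearer to AA than to PP for 80 of the 124 miRNAs (64.5%) and nearer to PP for 44, by the log2 difference of signals. With background modelled by normexp this majority turned, to 58 of 124 nearer to AA (46.8%). The expectation itself lay nearer to AA for 119 of them. Among the invertebrate probes PAA was nearer to AA for 60 of 96 (62.5%), so the zebrafish share is close to that of these probes. The share was 59.1% among probes named for other vertebrates, 73.9% among those labelled by a number and 90.9% among those labelled ZF_miR. Along the y axis of the slide, zebrafish spots lay from 33490 to 61180 microns on PAA and from 33580 to 61320 on AA. On PP they lay from 2570 to 30320, so nearness to AA cannot be told apart from place on the slide. The signal of PAA was between those of AA and PP for 45 miRNAs (36.3%), above both for 56 and below both for 23. Between was also the less common place among the invertebrate probes, at 30.2%.

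PAA lay between AA and PP more often where these differed. For 26 miRNAs the signals of AA and PP were over 1 log2 apart and their spots did not overlap, 8 with the higher signal on AA and 18 on PP. PAA was nearer to AA for 19 of the 26 and nearer to PP for 7, and it lay between them for 20, above both for 4 and below both for 2. Over the 98 other miRNAs it was between for 25.5%, where AA and PP were often too close to hold a value between them. On a linear axis with PP at 0 and AA at 1 the expectation is 0.667. The median place of PAA was 0.493 where AA was higher and 0.891 where PP was higher. With total scaling PAA was lower than the expectation for 17 of the 26, and for 52 of all 124 miRNAs. The 26 were chosen by the gap between the same values that set the expectation, so no direction is read from this.

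Where AA had the higher signal, miR-92a, of the miR-17-92 cluster, had 816 on PAA, 1816 on AA and 140 on PP, a place of 0.404 against 0.667 expected and a deviation of −0.62 ± 0.10. miR-21, induced in injury and growth, had 760 on PAA, 1542 on AA and 393 on PP, a place of 0.319 and the same distance from the expectation (−0.61 ± 0.11). Both were nearer to PP than the dose predicts. Of the neural miRNAs, miR-219, which promotes myelin formation, had 1691 on PAA, 2389 on AA and 942 on PP (place 0.518), and miR-153c 1845 on PAA, 2719 on AA and 1074 on PP (place 0.469). These last 2 and let-7f were the only ones of the 26 above the BLANK level on all 3 arrays. miR-103, a regulator of metabolism in mammals, had 158 on PAA, 257 on AA and 127 on PP (place 0.240). By contrast miR-93 at 942 on PAA, 1029 on AA and 351 on PP and miR-24 at 310 on PAA, 314 on AA and 151 on PP lay at AA, with places of 0.871 and 0.980. On PP miR-92a, miR-21, miR-93, miR-103 and miR-24 were below the BLANK level, so their places rest on values that are not above background, and for miR-103 and miR-24 that level exceeded the signal of AA too, so the order of AA and PP is not established.

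Where PP had the higher signal, PAA was mostly at the level of AA. miR-10b had 132 on PAA, 118 on AA and 485 on PP (place 0.961), miR-10c 125 on PAA, 132 on AA and 412 on PP (1.03), and miR-375, a miRNA of pancreatic islets, 171 on PAA, 148 on AA and 525 on PP (0.940). Also miR-203b, a skin miRNA, miR-214 and miR-19a* lay at AA on this axis, with places of 0.978, 0.971 and 0.978. In these cases PAA and AA were dim and only 3 of the 18 signals of PP were above the BLANK level of that array, so a value at AA cannot be told apart from one at the limit of the chip. miR-10d and miR-26a were near the expectation, with places of 0.682 and 0.657, though the deviation of miR-26a had an SE of 0.61. miR-126 had 355 on PAA, 176 on AA and 370 on PP (0.081), let-7f 490 on PAA, 273 on AA and 575 on PP (0.282), and miR-457b, of the miR-15/16 seed family, 409 on PAA, 178 on AA and 388 on PP (−0.103), and all 3 were nearer to PP. For miR-126, miR-457b and miR-26a both parental values were below their BLANK levels, so the order of AA and PP is not established. For miR-10d AA was below that level, so its place rests on a value not above background.

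**Figure D5:**
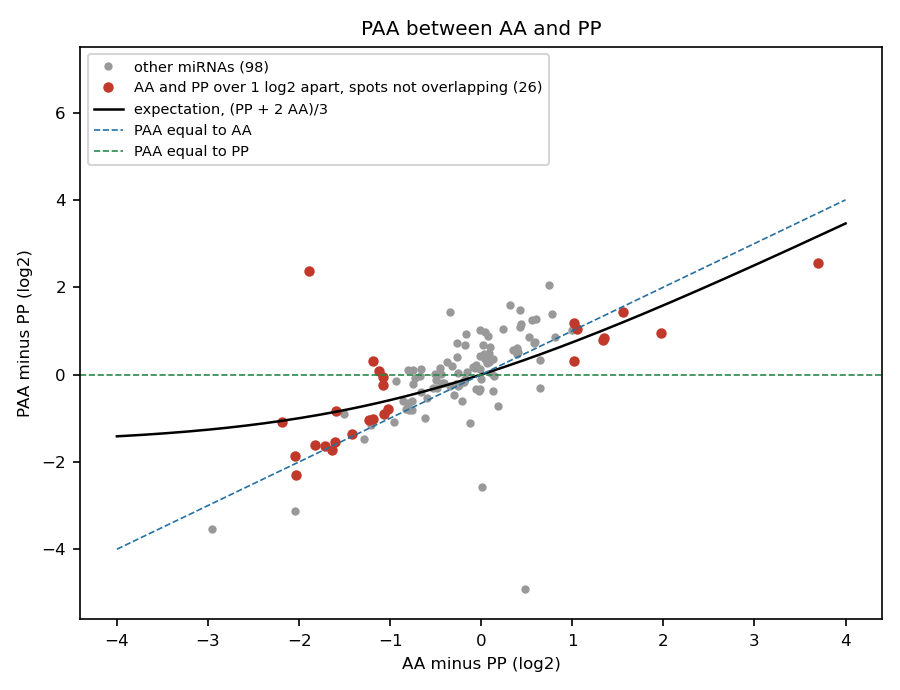
PAA minus PP (y axis, log2) against AA minus PP (x axis, log2) for 124 miRNAs. Red points are the 26 miRNAs with AA and PP over 1 log2 apart and no overlap of spots, the black line is the expectation, and dashed lines mark PAA equal to AA (blue) and to PP (green). At the left most red points follow the blue line, and at the right 5 of 8 lie below the black line.

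The miRNAs not detected on all 3 arrays numbered 94 of 218. Of these 15 were detected on PAA alone, 16 on PAA and AA, 13 on PAA and PP, 6 on AA and PP but not on PAA, 8 on AA alone, 13 on PP alone and 23 on none. Of those detected on PAA alone miR-182 was described above, and for the other 14 no fold remained once AA and PP were set to their BLANK levels. Of the 6 detected on AA and PP but not on PAA, miR-150, a lymphocyte miRNA, had 659 on AA and 179 on PP, where 499 was expected, and its single passing spot on PAA was at 208. With PP, which lay below the BLANK level, at 0 the expectation was at least 2.11-fold above that spot, but AA rested on 2 spots at 267 and 1626. For miR-202 the single passing spot of PAA lay above both parental values, and no bound below the expectation was left. For miR-128, a neuronal miRNA, miR-200b, an epithelial miRNA, miR-15a and miR-363 both parental signals were below the BLANK levels, so that no expectation above background could be set. Where 1 parent was not detected, the deviation was bounded by setting that parent to 0 or to the highest of its BLANK level and its spots. Of 17 such miRNAs with kept spots on each array 2 were above the expectation at both bounds, miR-133c and miR-223, 4 were below and 11 could lie on either side, and none was over 1 log2 away at both. For miR-133c and miR-223 the detected parent PP, at 250 and 264, was itself below the BLANK level, and with PP at that level no fold above the expectation remained. Of the 4 below, miR-30b and miR-19d had their detected parent above the BLANK level.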

How the data were processed

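Total RNA of each composition was labelled with Cy3 and hybridized to a multi-species miRNA oligonucleotide chip. The deposited scanner files hold, per the file headers, foreground and background intensity of 5040 spots without background subtraction, and the authors' QuantArray software wrote a further column of other values, 1 or 0, read here as a spot kept or set aside. The authors' deposited value table, of linear intensity, equalled the geometric mean foreground of kept spots times a factor per array (within 0.1% for at least 99.04% of zebrafish probes). It served as an alternative only. 0 columns of samples were left unused.

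Background was subtracted from each spot. A probe was detected with at least 2 of 4 passing spots, its level was their mean log2 signal, and arrays were scaled to the total of detected zebrafish probes. By its wording the background rule would also pass 6 spots of 4 miRNAs read as 0 over 0, which were left out after this had been seen. The deviation was log2 of PAA over (PP + 2 AA)/3. A detected probe below the BLANK level was set to that level to give a bound, and an undetected probe to the highest of the lowest detected signal, that level and its own spots. Spots were called apart where their ranges did not overlap.

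Named miRNAs were those over 1 log2 away, those nearest to the limits, the 5 brightest, the member farthest away in each list, the members of the miR-183 cluster, those nearest to AA or PP where both differ, and those with the largest bounds where 1 array lacked signal. Other miRNAs were named as further members of these lists or as bright miRNAs with spots apart, chosen after their values were seen. Members, lists and rules were chosen with earlier results of these data known. The calculation was tested on simulated data. Python 3.11.15, numpy 2.4.6, pandas 2.3.3, scipy 1.17.1 and, for normexp, limma 3.58.1 were used. Annotation of the probes, other than their names, was not used here.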

Additional observations from a re-analysis of the deposited data

Results flagged for a closer look

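Outside the zebrafish names, 7 probes on the chip lay more than 4-fold from the genome-dose expectation even with dim values set to the BLANK level, with the spots of PAA outside the expected range. The probe labelled 1522, with no miRNA name in the files, had 12043 on PAA, 248 on AA and 180 on PP, a deviation of 5.74 ± 0.22, and 11088 on PA. A probe named for mouse miR-200b had 22676 on PAA, 2708 on AA and 3428 on PP (2.94 ± 0.22). Among the probes with names of the worm *C. elegans*, miR-37 had 6275 on PAA, 454 on AA and 847 on PP (3.42 ± 1.01), from spots on AA between 137 and 4929, and miR-41 had 1709 on PAA, 341 on AA and 395 on PP (2.25 ± 0.18). Below the expectation were the probe labelled 1563 at 203 on PAA, 1582 on AA and 1079 on PP (−2.80 ± 0.20), that for mouse miR-615 at 2244 on PAA, 11816 on AA and 13807 on PP (−2.48 ± 0.20), and that for mouse miR-211 at 235 on PAA, 621 on AA and 1812 on PP (−2.12 ± 0.95). The probe for mouse miR-200b was bright on every array, whereas the zebrafish miR-200b probe was not detected on PAA. No array of any composition could be compared with a replicate, so no search for outlying samples was possible.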

How the results depend on the processing

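No paired analysis was possible because each composition has 1 array, and leaving out a replicate was not possible either. The median deviation of 0.19 turned to −0.064 with arrays scaled to the median, −0.33 with the Homo spots, −0.010 with quantile normalization, −0.069 with the total without the 10 brightest, −0.024 with no filter on dim spots (204 miRNAs) and −0.053 in the authors' value table (207 miRNAs), and it was 0.0066 with set-aside spots included (149 miRNAs) and 0.010 with the last 2 spots of each probe. The share above the expectation, 58.1%, was 40.3%, 21.8%, 47.6%, 38.7%, 48.0% and 45.9% in the first 6 of these, 66.9% without scaling, 69.4% with normexp, 67.6% with all 4 spots passing on each array (37 miRNAs) and 75.4% with a spot area of at least 2000 (61 miRNAs). The 7 miRNAs over 1 log2 above became 4 with median scaling, 2 with the Homo spots, 4 without the 10 brightest, 4 with normexp, 11 with set-aside spots, 4 with all 4 spots, 0 above BLANK on each array (25 miRNAs), 14 with the first 2 spots of each probe and 4 with the area minimum. The 6 below became 20 with the Homo spots, 10 without the 10 brightest, 27 without a dim filter, 20 with set-aside spots, 10 with the arithmetic mean, 2 with all 4 spots and 2 with the area minimum. PAA was nearer to AA for 124, 142, 20, 16 and 36 miRNAs without a dim filter, in the authors' table, with all 4 spots, above BLANK and with the area minimum, and between AA and PP for 76, 69, 11, 7 and 17. These sets are larger or smaller than 124 by construction. On the same 124 miRNAs 58 were nearer to AA with normexp, so that the majority turned to PP. Of the 114 values of the main results under the 19 alternatives 70 stayed close to the main one, 38 moved and 6 changed the sign of the median. Close meant within the median SE for the median deviation and within a set ratio for counts. For the share above the expectation it meant inside a binomial range that treats miRNAs as independent. They are not, and the sets differ in size, so this count is a rough guide. The area minimum and the passing of spots read as 0 were added after seeing the data. All 13 miRNAs over 1 log2 away kept their sign, which under the scalings was likely from their selection by distance. miR-731 and miR-101a above, and let-7c, miR-220 and miR-738 below, stayed over 1 log2 in each alternative that measured them. In that order they were measured in 17, 18, 18, 18 and 16 of the 19 alternatives. For miR-738 those with all 4 spots, the last 2 spots and the area minimum were missing, so its few spots were not checked by them. miR-96 and miR-30c were under 1 in 7 alternatives each (down to 0.52 and 0.51), miR-451 in 6 (0.67), miR-218a in 5 (−0.71 with quantile normalization), miR-193a in 5 (−0.44 in the authors' table), miR-454b in 2 (0.86 and 0.96), miR-1 in 1 (0.999 with the Homo spots) and miR-736 in 1 (−0.018 with the last 2 spots). The cause of these changes was not tested.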
